A study of Mus musculus with 6 samples.

Results

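The chemokine ligands described here are 10 genes: Ccl3, Ccl4, Ccl5, Ccl6, Ccl9, Ccl17, Ccl22, Cxcl9, Cxcl10 and Cxcl16. They were taken by symbol from the platform annotation of an Illumina mouse bead array, out of 16593 genes with a symbol, and a gene was called measured where 3 or more of the 6 arrays detected its signal (a detection p below 0.05). By that rule 8 of the 10 were measured, among 6331 features (genes and unnamed probes) measured in all, and Ccl22 and Cxcl10 were detected on 0 arrays. The RNA came from dendritic cells (DCs), the cells that carry antigen to T cells, sorted by flow cytometry from peripheral lymph nodes. One group of mice was gavaged with broad-spectrum antibiotics over 10 days, and the other group is labelled as having no treatment, with 3 arrays in each group. The labels name no gavage for the untreated mice, so gavage and antibiotics cannot be told apart, and strain, genotype, sex and age are not given in the sources used here. Whether the arrays hold separate mice or pools is not stated either, so each p-value covers only the variation among these arrays, part of which may be technical.

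Chemokines are small proteins that steer cell movement by binding G protein-coupled receptors. DCs use them to bring T cells into contact with the antigen they carry: Cxcl9 and Cxcl10 act on Cxcr3 of activated T cells and NK cells, and Ccl17 and Ccl22 act on Ccr4. Ccl3, Ccl4 and Ccl5 recruit T cells and myeloid cells during inflammation, Ccl6 and Ccl9 are rodent chemokines made by myeloid cells, and Cxcl16 is made as a membrane-bound protein that is recognised by Cxcr6 and can be shed. Cxcl9 is switched on chiefly by interferon-gamma, while Cxcl10 also answers to type I interferon.

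The 10 genes lie on 3 mouse chromosomes, with 6 on chromosome 11, 2 on chromosome 5 and 2 on chromosome 8. In the GRCm38.p6 gene order, Ccl5, Ccl9, Ccl6, Ccl3 and Ccl4 follow each other as coding neighbours on chromosome 11. Cxcl9 and Cxcl10 on chromosome 5 are separated by the coding gene Art3, and Ccl22 and Ccl17 on chromosome 8 are separated by Cx3cl1, itself a chemokine gene. In each of these pairs on chromosomes 5 and 8 one gene was measured in these DCs, Cxcl9 and Ccl17, and its neighbour, Cxcl10 and Ccl22, was not. Detection depends on the probe as well as on the gene, so these pairs need not differ in expression. The 250 bases before the start of these 4 genes are shown because the pairs differ in detection, and no link was tested. The sequences are from RefSeq (GRCm38.p6), which gave windows for 7 of the 10 genes. Capitals mark matches to an interferon-stimulated response element (ISRE, GAAANNGAAA), a gamma-activated site (GAS, TTCNNNGAA), a STAT6 site (TTCNNNNGAA) or the NF-kB consensus, searched on both strands.
Cxcl9, chr5:92328080-92328329, minus strand: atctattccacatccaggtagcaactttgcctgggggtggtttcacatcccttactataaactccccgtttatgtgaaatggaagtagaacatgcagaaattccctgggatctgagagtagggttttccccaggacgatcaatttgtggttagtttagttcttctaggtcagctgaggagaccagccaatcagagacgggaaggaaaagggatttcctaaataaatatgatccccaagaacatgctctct
Cxcl10, chr5:92348890-92349139, minus strand: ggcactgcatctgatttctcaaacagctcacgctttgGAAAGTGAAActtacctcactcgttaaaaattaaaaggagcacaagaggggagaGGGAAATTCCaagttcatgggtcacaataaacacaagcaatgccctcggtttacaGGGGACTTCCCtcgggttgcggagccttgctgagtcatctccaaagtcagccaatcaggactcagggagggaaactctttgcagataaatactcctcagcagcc
Ccl17, chr8:94810203-94810452, plus strand: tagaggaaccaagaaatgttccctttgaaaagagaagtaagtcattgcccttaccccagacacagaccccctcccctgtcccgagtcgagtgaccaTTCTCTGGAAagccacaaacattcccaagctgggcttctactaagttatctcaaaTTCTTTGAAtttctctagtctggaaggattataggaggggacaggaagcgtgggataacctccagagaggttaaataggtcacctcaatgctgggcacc
Ccl22, chr8:94745434-94745683, plus strand: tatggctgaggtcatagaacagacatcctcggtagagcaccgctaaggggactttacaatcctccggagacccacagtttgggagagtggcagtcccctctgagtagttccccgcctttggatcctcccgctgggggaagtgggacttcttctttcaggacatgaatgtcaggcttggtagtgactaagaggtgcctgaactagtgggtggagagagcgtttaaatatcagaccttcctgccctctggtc

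The Cxcl10 window held 1 ISRE match, 213 to 204 bases before the start, and 3 NF-kB matches, of which 2 overlap each other. The Cxcl9 window held no match to any of these motifs, which says only that those letters are not in this stretch. The Ccl17 window held 1 GAS match and 1 STAT6 match, and the Ccl22 window none. The only other match among the 7 windows was an NF-kB match in the Ccl9 window. Among all 32841 promoter windows of this length, an ISRE match occurred in 2.98%, a GAS match in 7.02%, a STAT6 match in 5.85% and an NF-kB match in 7.25%.

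The samples can be described briefly. Each array detected 6876 to 7674 of its 25697 probes. Antibiotics replicate 1 stood apart on the first principal component, at -25.3 where the other 5 arrays lay between 1.36 and 11.5, and values without it stand beside those of Cxcl9, Ccl3, Ccl9 and Ccl6. Of 7 core DC markers on the array, 6 were measured, among them Itgax (CD11c), Zbtb46 and Cd74, each detected on 6 of 6 arrays, while the signal of Flt3 was detected on 0. In RNA from sorted cells in bulk, a difference can come from fewer cells of a type or from less RNA per cell, and these cannot be told apart. All levels below are log2 intensities after background correction and quantile normalization. Probes differ in brightness for reasons of their own, so levels are set side by side between arrays and not between genes.

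Cxcl9 showed the greatest difference between the groups among the 8 measured ligands, higher after antibiotics, and it did not pass the test over all features. Ccl17 and Ccl3 also lay above the untreated level on average, Cxcl16 and Ccl4 lay below it, and Ccl5, Ccl6 and Ccl9 differed by less than 0.15 on the log2 scale. No ligand reached an adjusted p of 0.05 in limma (0 of 8), and neither did any other feature (0% of 6331), with adjusted p between 0.366 and 0.9996 for the ligands. At an unadjusted p under 0.05 there were 2 of 8, Cxcl9 and Ccl17, both higher, against 7.74% of all features in either direction, 3.41% in the higher direction and 4.33% in the lower one. The second of them changed with the processing: without background correction or without a filter on dim probes, the 2 were Cxcl9, higher, and Cxcl16, lower. Ccl17 then had a limma unadjusted p of 0.0546 without background correction and 0.0801 without the filter. With a background offset of 50 or an intensity trend in the variance, Cxcl16 joined Cxcl9 and Ccl17 and the count was 3. With median scaling and with the authors' normalized table it was 1, Cxcl9 alone. The count was also 1, Cxcl9 alone, without antibiotics replicate 1, antibiotics replicate 3, untreated replicate 1 or untreated replicate 2. Of the 8 ligands 6 lay above the untreated level, where 53.6% of all features did, and the median log2 fold change was 0.11, against 0.017 over all features. Without untreated replicate 1 the count was 4 of 8 and the median -0.015. The groups did not overlap for 2 of 8 ligands, Cxcl9 and Cxcl16, against 13.7% of all features. A count of 2 in 8 is too small to set apart from that share. The count was 4 of 8 without antibiotics replicate 2 or without untreated replicate 3. It was 3 of 8 with the mean of a gene's kept probes in place of the brightest. Groups come apart more easily when an array is left out. The share of all features was not computed for these settings, so these counts are not set against 13.7%.

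**Figure D1:**
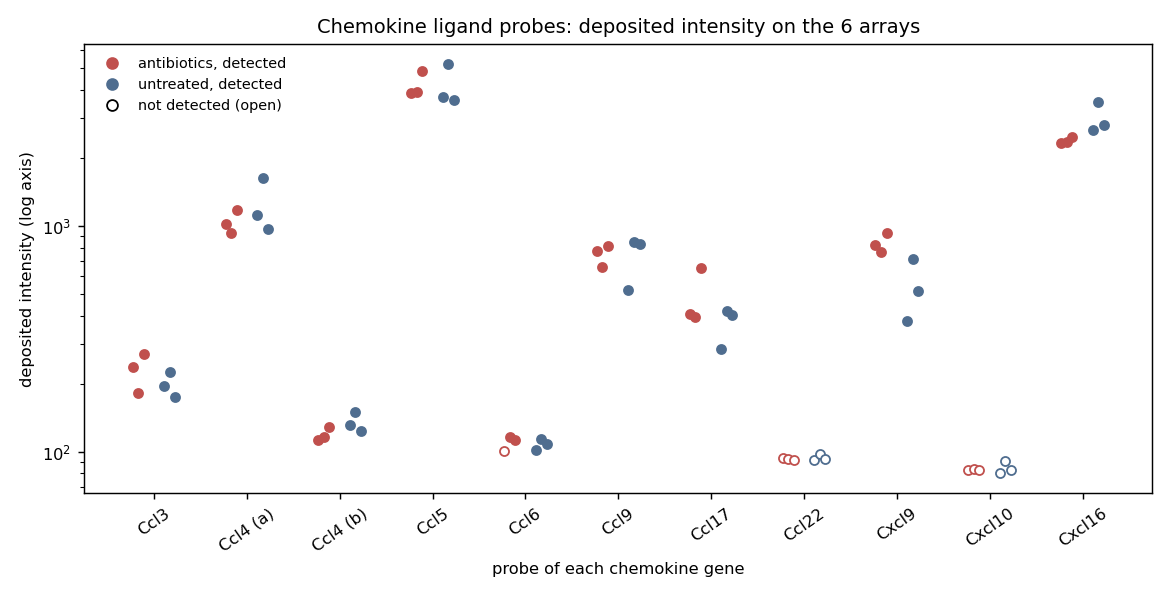
Deposited intensity (log axis, not normalized) of each probe of the 10 chemokine genes on the 3 antibiotics arrays and the 3 untreated arrays; filled points were detected, open points were not. Ccl22 and Cxcl10 are open on all 6 arrays, Ccl6 is open on antibiotics replicate 1, and Ccl4 (a) and (b) are its 2 probes.

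Among the interferon-induced ligands, Cxcl9 (probe ILMN_1215862) had deposited intensities of 822.8, 765.3 and 925.1 on the antibiotics arrays, against 378.4, 711.1 and 512.4 on the untreated arrays. After normalization its log2 level was 9.80, 9.44 and 9.66 after antibiotics, and 8.36, 9.02 and 8.91 without. Every antibiotics array lay above every untreated array, by a gap of 0.42 between the nearest ones (7.12% of all features had groups apart in this direction), and untreated replicate 1 was the lowest of all. The group means were 9.63 ± 0.18 after antibiotics and 8.77 ± 0.35 without (SD, n = 3 each). The log2 fold change was 0.87 (SE 0.20, 95% interval 0.41 to 1.33), a 1.82-fold difference, with a limma unadjusted p of 0.00226 and an adjusted p of 0.366. An exact two-sided permutation test of the 6 arrays gave 0.1, the smallest p that 3 arrays against 3 allow. Cxcl9 was singled out with its direction in these data known, so its p-values and rank are a description and not independent evidence. In size the Cxcl9 difference exceeded 99.4% of all features tested, and its limma p ranked 39 of 6331. That rank was 113 of 6331 with median scaling, and it lay between 22 without untreated replicate 2 and 126 without antibiotics replicate 1. Leaving out antibiotics replicate 1 gave a log2 fold change of 0.78. The lowest value of the 16 alternatives was 0.67, with untreated replicate 1 left out, and the highest was 0.996, with untreated replicate 2 left out.

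Cxcl10 (probe ILMN_3142803), the closest relative of Cxcl9 in receptor and regulation, gave intensities of 82.5, 83.4 and 83.2 on the antibiotics arrays and 80.4, 90.8 and 82.5 on the untreated arrays. Its detection p lay between 0.422 and 0.525 after antibiotics and between 0.206 and 0.650 without. Cxcl11, the third Cxcr3 ligand and not one of the 10, was likewise detected on 0 arrays, at 82.6 to 84.8 after antibiotics and 78.8 to 82.2 without. Both genes were not well above background in either group, so they have no fold change, and the planned comparison of the Cxcl9 difference with that of Cxcl10 has no value. In its place Ccl5, which interferons also induce and which was bright on every array, was set beside Cxcl9, a choice made after the detection values were seen. Measured on each array as Cxcl9 minus Ccl5 in log2 units, the gap was -2.25, -2.45 and -2.51 after antibiotics and -3.49, -3.08 and -3.02 without. The groups did not overlap, and the difference was 0.79. It is a description with no test, since Cxcl9 alone had groups apart and Ccl5 was chosen after values were seen. The size of that difference lay between 0.64 and 0.88 over the alternative settings.

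Other genes of the interferon-gamma response lay mostly below the untreated level, by little at the median, where Cxcl9 lay above it. Of the 15 on that list measured beside Cxcl9, 12 are induced genes, and 3 are parts of the pathway itself, the receptor chain genes Ifngr1 and Ifngr2 and the kinase gene Jak2. Of the 12, 2 lay above the untreated level and 10 below (1 and 11 with median scaling), where 53.6% of all features lay above. The median was -0.13 for the 12 and -0.11 for the 15, and 0 of the 15 passed the adjusted test. Gbp3, a guanylate-binding protein, stood at -0.90 (SE 0.15), Cd274, which encodes PD-L1, at -0.63 (SE 0.21) and Gbp2 at -0.43 (SE 0.16), each with groups that did not overlap. Groups were also apart for Ciita, lower at -0.35 (SE 0.19), and for Irf8, higher at 0.16 (SE 0.14), as for 13.7% of all features. Irf1, a transcription factor for many interferon-gamma targets, stood at -0.11 (SE 0.13) with overlapping groups. Igtp, Irgm1, Irgm2, Tap1, Psmb8 and Psmb9 overlapped too, between -0.21 for Tap1 and 0.02 for Irgm1. Of the pathway genes, Ifngr1 stood at 0.59 (SE 0.27), Ifngr2 at 0.16 (SE 0.25) and Jak2 at -0.05 (SE 0.18), also with overlap. Relative to the mean of these 15 genes on the same array, Cxcl9 lay at 1.24, 0.89 and 1.08 after antibiotics, against -0.34, 0.29 and 0.22 without. The difference was 1.01, between 0.81 and 1.13 over the alternatives, and 1.10 against the 12 induced genes alone, between 0.89 and 1.23. These differences are a description with no test, since both the list and Cxcl9 were chosen with their directions in these data known. Type I interferon-stimulated genes, the antiviral programme, all lay below the untreated level among the 15 measured here, at a median of -0.54, and 0 of them passed the adjusted test. The median was -0.26 without background correction and -0.34 with an offset of 50. The smallest p-values were those of Ifit3 at -1.21 (SE 0.18), Ifi27l2a at -0.91, Oas1g at -0.79 and Rsad2 at -1.10. That list was written with its direction in these data already known, so neither its count nor the distance of Cxcl9 from it is independent evidence. Relative to its mean, Cxcl9 differed by 1.43, between 1.14 and 1.62 over the alternatives, given with no test.

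**Figure D2:**
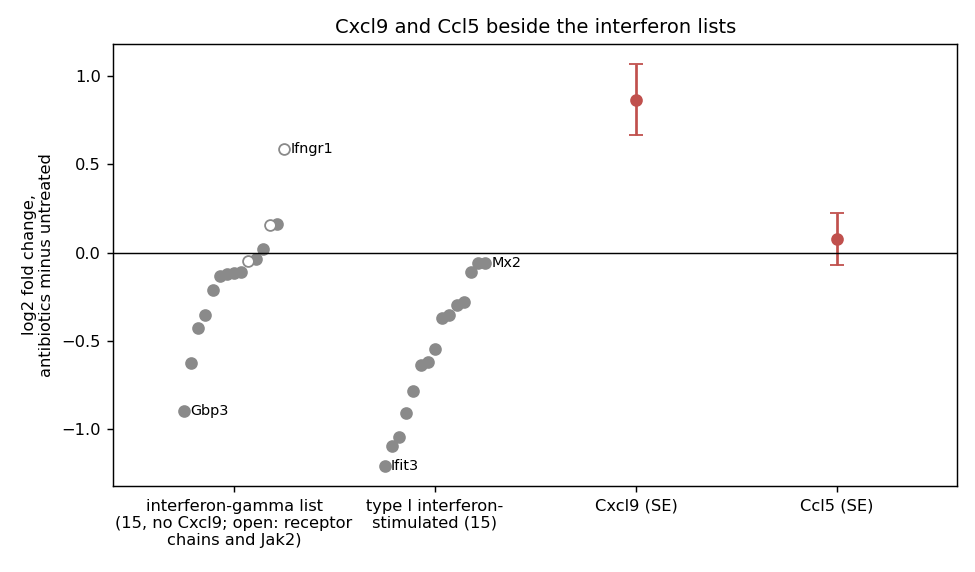
Log2 fold change (antibiotics minus untreated) of each measured gene of the interferon-gamma list other than Cxcl9 (open points for the receptor chain genes and Jak2) and of each type I interferon-stimulated gene (grey), with Cxcl9 and Ccl5 (red, SE). Cxcl9 at 0.87 lies above every gene of both lists, the nearest being the receptor chain gene Ifngr1 at 0.59 and the nearest induced gene Irf8 at 0.16, and Ccl5 lies at 0.08.

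Markers of cDC1, the conventional DC subset known as a source of Cxcl9 in mouse, were uneven beside it. All 6 measured markers of the 10 on the array were above the untreated level, by a median of 0.24 (0.14 without background correction), or 4 of 6 with median scaling, and their mean level was 7.56 to 7.75 after antibiotics and 7.22 to 7.52 without. The adhesion molecule gene Cadm1 stood at 0.78 (SE 0.19) with groups apart, Xcr1, detected on 3 of 6 arrays, at 0.32 (SE 0.27) and Itgae at 0.32 (SE 0.17). The transcription factor gene Batf3 stood at 0.03 (SE 0.14) and Ppt1 at 0.01 (SE 0.24), both with overlap, and the cDC1 markers Clec9a, Naaa and Cd8a were detected on 0 arrays. Irf8, at 0.16 (SE 0.14) and also with groups apart, stands in this list and in the interferon-gamma list. Groups were apart for 13.7% of all features. The part of these markers in the Cxcl9 difference was not tested. Macrophage and monocyte markers, from cells that can also make Cxcl9, Ccl6 and Ccl9, lay above the untreated level in 5 of 7 measured (3 of 7 with median scaling), at a median of 0.03, close to that of all features, with a mean level of 6.94 to 7.35 after antibiotics and 6.82 to 7.10 without. Among them the lysozyme gene Lyz2 stood at 0.54 (SE 0.18) and Adgre1 (F4/80) at 0.33 (SE 0.14), both with groups apart, while Ly6c1 stood at -0.30 (SE 0.25), Cd14 at -0.08 (SE 0.19), C1qa at 0.03 (SE 0.15) and C1qb at 0.02 (SE 0.29), all with overlap. Mertk, Fcgr1, Siglec1 and Ccr2 were detected on 0 arrays. Their part was not tested either. Of other cells and subsets, all 5 measured plasmacytoid DC markers were lower, led by Atp1b1 at -0.57 (SE 0.19). All 3 measured B cell markers were lower too, unevenly. Fcmr stood at -1.06 (SE 0.27) and Cd22 at -0.79 (SE 0.25), each detected on 5 of 6 arrays. Cd79b, detected on 6 of 6, stood at -0.06 (SE 0.14) with overlap. Ms4a1, Cd79a, Pax5, Blk and Ebf1 were detected on 0 arrays. The measured cDC2 markers were divided 3 to 3, and Sirpa, Itgam and Clec4a4 of that list were detected on 0 arrays. Neutrophil and stromal markers were barely measured, with S100a8, S100a9, Col1a1 and Pdpn detected on 0 arrays.

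The 5 named genes whose levels followed Cxcl9 most closely over the 6 arrays, by Pearson correlation, were Ly6h (r = 0.995), Tmem106c (r = 0.990), Vwf (r = 0.981), Spag7 (r = 0.978) and Cd9 (r = 0.971). Their fold changes ran from 0.16 for Ly6h to 0.82 for Vwf, the von Willebrand factor gene of endothelial cells and platelets. Cd9, a tetraspanin gene, stood at 0.73. These correlations are a description over 6 arrays, picked from 5901 named genes measured on the same arrays.

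**Figure D3:**
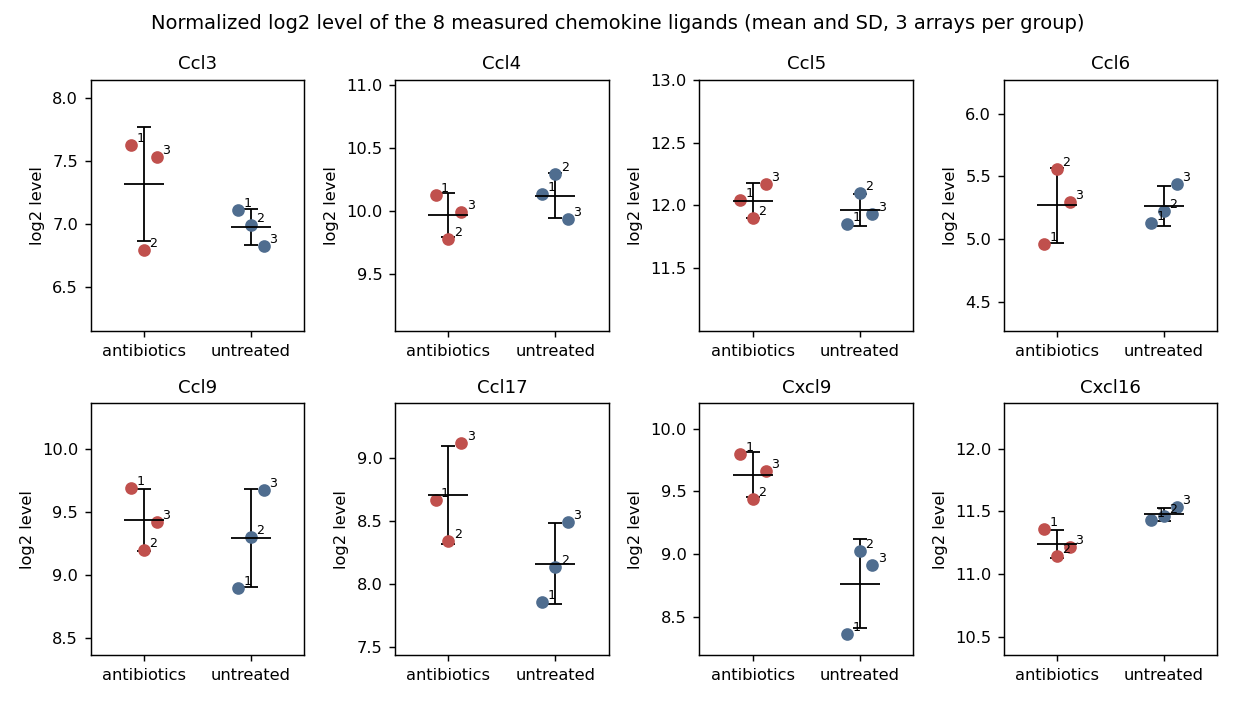
Normalized log2 level of the 8 measured chemokine ligands on each array (points numbered by replicate), antibiotics left and untreated right, with the mean and SD of 3 arrays; every panel spans the same number of log2 units. The groups are apart for Cxcl9 and, by a narrow gap, for Cxcl16, and they overlap for the other 6.

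Of the Ccr4 ligands, Ccl17 (probe ILMN_2717015) had deposited intensities of 408.1, 394.1 and 651.6 after antibiotics, against 283.9, 418.2 and 403.0 without. Its normalized log2 level was 8.66, 8.34 and 9.12 after antibiotics and 7.86, 8.13 and 8.50 without, so antibiotics replicate 2 lay below untreated replicate 3 and the groups overlapped. The log2 fold change was 0.55 (SE 0.24, 95% interval 0.01 to 1.09), with an unadjusted limma p of 0.0472 and an adjusted p of 0.634. It was 0.34 without antibiotics replicate 3, the brightest array, and 0.73 without antibiotics replicate 2. Ccl22, its partner on the same receptor, gave intensities of 94.0, 92.5 and 91.9 on the antibiotics arrays and 91.5 to 97.7 on the untreated arrays, with detection p of 0.0890 or more on every array. It has no fold change. The Ccl22 probe was dim although other genes of mature, migratory DCs were measured, including Ccr7, Fscn1 and Cd83 on 6 of 6 arrays. Of 11 measured genes of that list, which includes Ccl17, 8 lay below the untreated level, at a median of -0.23 (9, at -0.35, with median scaling), among them the costimulatory receptor gene Cd40 at -0.61 (SE 0.15). Ccl17 was among the 3 that lay above, with the costimulatory ligand genes Cd80 at 0.24 (SE 0.14) and Cd86 at 0.12 (SE 0.16). Groups were apart for Cd40 and Cd80, as for 13.7% of all features, and they overlapped for Cd86. Fscn1 at -0.007 (SE 0.30) and Cd83 at -0.04 (SE 0.17) also overlapped, and 0 of the 11 passed the adjusted test. The mean level of the list was 10.03 to 10.26 after antibiotics and 10.04 to 10.34 without, and its part in the Ccl17 value was not tested.

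Among the inflammatory ligands, Ccl3 had log2 levels of 7.63, 6.79 and 7.53 after antibiotics, against 7.11, 6.99 and 6.83 without. Antibiotics replicates 1 and 3 lay above all untreated arrays, and antibiotics replicate 2 was the lowest of the 6. The log2 fold change was 0.34 (SE 0.23, limma adjusted p = 0.766), or 0.60 without antibiotics replicate 2 and 0.19 without antibiotics replicate 1. Ccl4, its neighbour on chromosome 11, was read by 2 probes that did not give the same picture. The brighter probe showed log2 levels of 10.13, 9.78 and 9.99 after antibiotics and 10.14, 10.29 and 9.93 without, an overlapping difference of -0.15 (SE 0.16). The dimmer one showed 5.44, 5.57 and 5.76 after antibiotics, all below the 6.06, 6.06 and 5.89 without, a difference of -0.41 (SE 0.15). Its limma unadjusted p was 0.0216 in a fit over all kept probes, and the counts of ligands used the brighter probe. With the mean of the 2 probes the difference was -0.28 (limma unadjusted p = 0.0763). Ccl5, also known as RANTES, had log2 levels of 12.05, 11.90 and 12.17 after antibiotics and 11.85, 12.10 and 11.93 without. The difference of 0.08 (SE 0.15, 95% interval -0.26 to 0.41) turned to -0.0088 with median scaling. Of markers of T and NK cells, which can make all of Ccl3, Ccl4 and Ccl5, few were measured: 2 of 8 T cell and 2 of 8 NK cell genes. Cd3e, Cd3d, Cd3g, Ncr1, Nkg7 and Gzmb were detected on 0 arrays. The NK cell markers Prf1 and Klrd1 had a mean level of 7.37 to 7.94 after antibiotics and 7.31 to 7.66 without, and the T cell markers Cd8b1 and Cd5 had 6.02 to 6.41 after antibiotics and 6.12 to 6.50 without.

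The myeloid ligands Ccl9 and Ccl6, which act on Ccr1, overlapped between the groups. Ccl9 had log2 levels of 9.69, 9.20 and 9.42 after antibiotics, against 8.90, 9.30 and 9.68 without, a difference of 0.14 (SE 0.22, 95% interval -0.36 to 0.65). Its antibiotics arrays spanned 0.49 and its untreated arrays 0.78, and the difference was -0.05 without untreated replicate 1 and 0.018 without antibiotics replicate 1. Ccl6 was dim, detected on 2 of 3 antibiotics arrays and on 3 of 3 untreated arrays. Its log2 level was 4.96, 5.56 and 5.30 after antibiotics and 5.13, 5.23 and 5.44 without, and its difference of 0.004 (SE 0.18) had no stable sign when single arrays were left out. It was 0.16 without antibiotics replicate 1, the array that did not detect it.

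Cxcl16, the membrane-bound ligand, was lower after antibiotics on every array by a small margin. Its log2 level (probe ILMN_2687586) was 11.36, 11.15 and 11.22 after antibiotics, against 11.43, 11.46 and 11.53 without. The gap between the nearest arrays was 0.07, less than the range within either group (0.22 after antibiotics and 0.11 without), and 6.62% of all features also had groups apart in that direction. The group means were 11.24 ± 0.11 after antibiotics and 11.48 ± 0.05 without (SD, n = 3 each). The log2 fold change was -0.24 (SE 0.14, limma unadjusted p = 0.121, adjusted p = 0.733), and it lay between -0.36 and -0.19 over the alternatives. The unadjusted p was under 0.05 in 4 of the 16, at 0.0256 without background correction, 0.0475 with an offset of 50, 0.0142 without a filter on dim probes and 0.0411 with an intensity trend, where the adjusted p lay between 0.541 and 0.714.

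**Figure D4:**
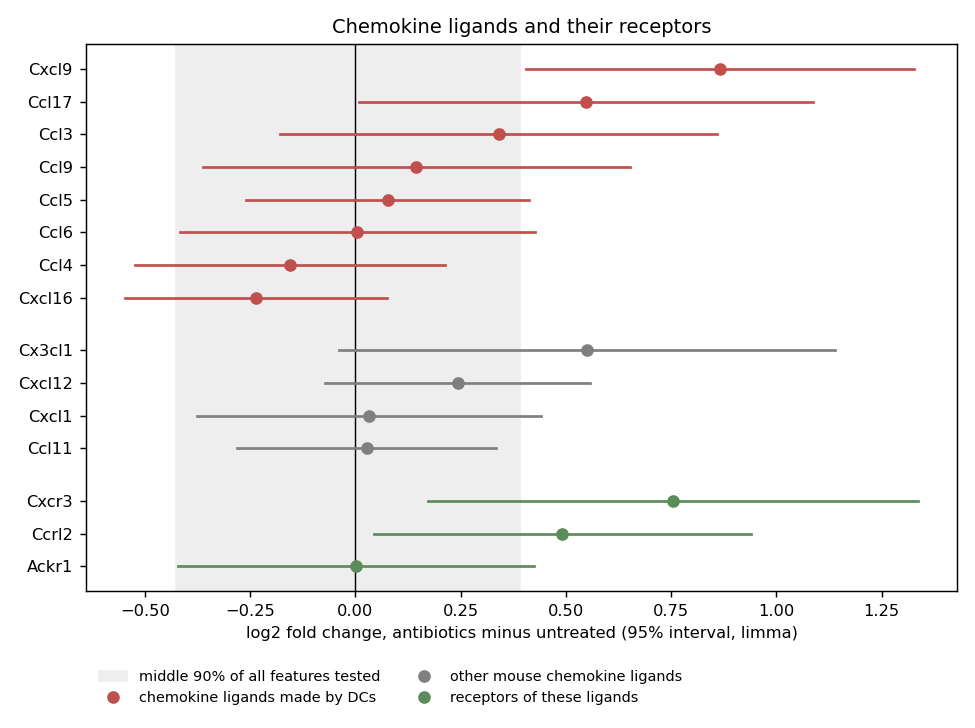
Log2 fold change, antibiotics minus untreated, with limma's 95% interval for the 8 measured chemokine ligands (red) and 4 other measured chemokine ligands (grey). In green are 3 measured genes of the receptor list, of which Ccrl2 is reported to bind chemerin rather than signal for chemokines. The shaded band holds the middle 90% of all features tested. The intervals of Cxcl9, Ccl17, Cxcr3 and Ccrl2 lie above 0 before adjustment over all features, and none of these genes passed after it.

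The other chemokine ligands of the mouse were mostly not detected on this array. That does not show the genes to be silent, since the core DC marker Flt3 was detected on 0 arrays too. Of 30 on it, 4 were measured and 23 were detected on 0 arrays, among these Ccl2, Ccl7, Cxcl2 and Ccl20. All 4 measured ones lay above the untreated level (3 of 4 with median scaling) and 0 passed the adjusted test or an unadjusted p of 0.05. Cx3cl1, the membrane-bound fractalkine whose gene lies between Ccl22 and Ccl17, stood at 0.55 (SE 0.26) with overlapping groups. Cxcl12, a stromal chemokine that binds Cxcr4, stood at 0.24 (SE 0.14) with groups apart, and Cxcl1 and Ccl11 stood at 0.03 each. Of 9 receptor and receptor-like genes listed for these ligands and on the array, 3 were measured, and 6, including Ccr1, Ccr4 and Cxcr6, were detected on 0 arrays. Cxcr3, the receptor for Cxcl9, had log2 levels of 6.95, 7.15 and 6.70 after antibiotics and 5.64, 6.23 and 6.66 without, a difference of 0.75 (SE 0.26, limma adjusted p = 0.551). Its groups were apart by the margin between 6.70 and 6.66, and 13.7% of all features had groups apart. Ccrl2, a receptor-like protein reported to bind chemerin rather than signal for chemokines, stood at 0.49 (SE 0.20, limma adjusted p = 0.610), also with groups apart. Ackr1, which binds many chemokines without signalling, stood at 0.002, a value whose sign turned with median scaling and with the authors' normalized table.

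NF-kB subunits and inhibitors, which act on the Ccl3, Ccl4, Ccl5, Ccl17, Ccl22 and Cxcl10 genes, lay mostly below their untreated values. There were 7 lower and 2 higher among the 9 measured, at a median of -0.15 (8 lower, at -0.26, with median scaling), and 0 passed the adjusted test. Bcl3, a nuclear regulator of NF-kB, stood at -0.60 (SE 0.15) and Rela at -0.15 (SE 0.13). Both had groups apart, as did 13.7% of all features. Rel, at -0.45 (SE 0.19), had overlapping groups and was detected on 4 of 6 arrays. The 4 of these ligands that were measured stood on both sides of 0, between -0.15 for Ccl4 and 0.55 for Ccl17.

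**Figure D5:**
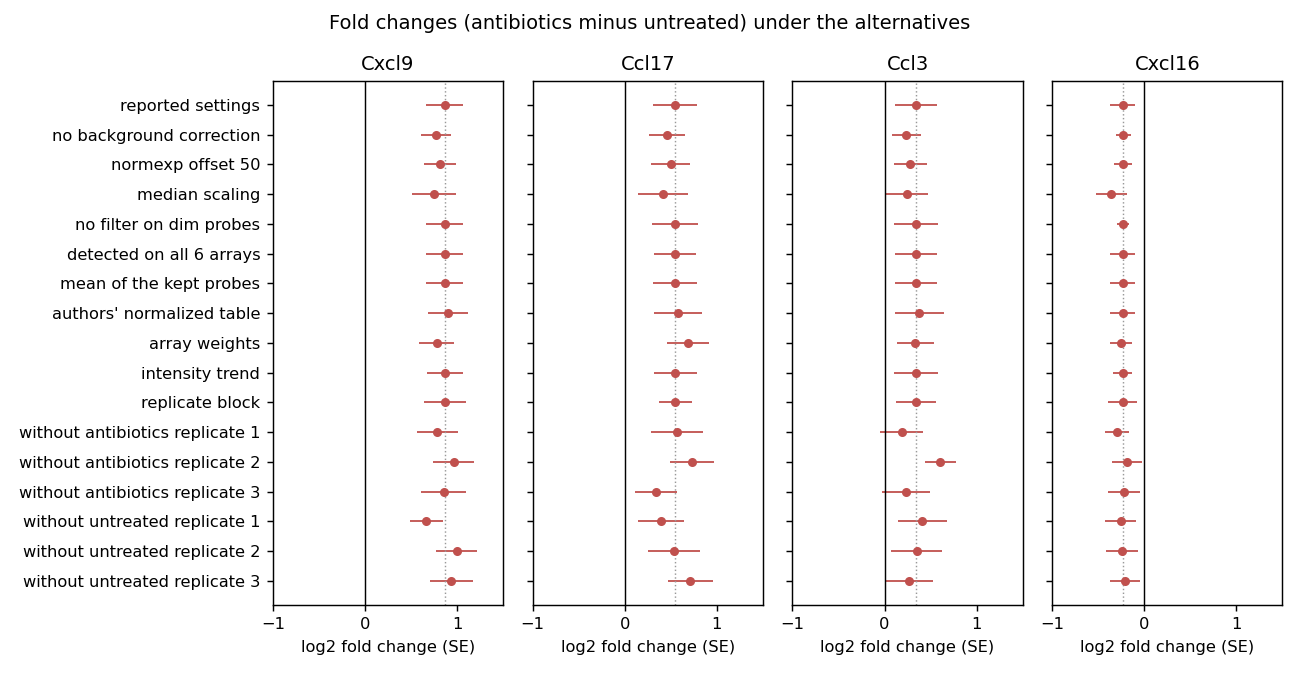
Log2 fold change (antibiotics minus untreated, with SE) of Cxcl9, Ccl17, Ccl3 and Cxcl16 under the reported settings and the 16 alternatives; the dotted line marks the reported value. Cxcl9 stays between 0.67 and 0.996, Ccl17 between 0.34 and 0.73, Ccl3 between 0.19 and 0.60 and Cxcl16 between -0.36 and -0.19.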

How the data were processed

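RNA of sorted lymph node DCs was hybridised to an Illumina mouse bead array, on 3 antibiotics and 3 untreated arrays grouped by their titles. The authors deposited probe intensity that was neither background-corrected nor normalized between arrays, as its values show, and a detection p-value per probe and array, per the file headers. They also deposited a normalized intensity table on a linear scale, whose method the sources used here do not give. All its values recur in the value table of the series, equal in 154182 cells.

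The intensities were corrected and normalized with limma 3.58.1 in R 4.3.3 (neqc: background from the detection p-values, offset 16, quantile normalization, log2). The offset and any background left understate fold changes of dim genes, and quantile normalization hides a shift of all genes together. Probes detected (p under 0.05) on 3 or more arrays were kept, 7507 of 25697, and the kept probe with the highest mean stood for a gene, leaving 6331 features. Antibiotics were compared with untreated arrays by lmFit and eBayes without a block, two-sided, with Benjamini-Hochberg adjustment over all 6331. The fit was checked on simulated data with changes larger than those of these ligands, so that check does not cover differences of this size. All ligands are named, and from the other lists genes with an unadjusted p under 0.05 and no overlap (at most 4 per list), measured interferon-induced chemokines and receptors, and the 5 closest to Cxcl9; other genes named were chosen after their values were seen. The members and lists were chosen with earlier results of these data known. Same-numbered arrays showed no sign of pairing, and the labels do not say whether they were paired. The number of arrays limits the precision, and genes absent from the tables given were not analysed here.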

Additional observations from a re-analysis of the deposited data

How the results depend on the processing

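No ligand and no other feature passed an adjusted p of 0.05 under any of the 16 alternatives, with the smallest adjusted p over all features between 0.0940 (array weights) and 0.677. Cxcl9 kept its direction in all 16, at adjusted p between 0.210 and 0.786. The count of ligands at an unadjusted p under 0.05 was 1 with median scaling and 1 with the authors' normalized table, 3 with an offset of 50 and 3 with an intensity trend, and between 1 and 3 without single arrays. The median over the ligands lay between -0.015 and 0.207 without single arrays, and the count with groups apart between 2 and 4. Groups come apart more easily with an array left out, and the share of all features was not computed for those settings. Ccl5 stood at -0.0088 with median scaling. Without single arrays Ccl6 lay between -0.139 and 0.160 and Ccl9 between -0.052 and 0.338, turning negative for Ccl6 without antibiotics replicate 2 or 3 or untreated replicate 1 or 2, and for Ccl9 without untreated replicate 1. The cause was not tested beyond leaving out those arrays. Same-numbered arrays did not deviate together (correlations of -0.05, -0.06 and -0.15 with the number's own partner, and 0 of 3 best matched to their own number). With the replicate number as a block, Cxcl9 stood at 0.87 (limma adjusted p = 0.656), the count of ligands past the threshold was 0 and that at an unadjusted p under 0.05 was 2. The comparison of Cxcl9 with Cxcl10 was not run under any setting because Cxcl10 was detected on 0 arrays. The comparisons with Ccl5 and the interferon lists, and the counts with groups apart or at an unadjusted p, were added after the data were seen.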
